A study of Mus musculus with 7 samples.

Results

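The comparison described here is differentiation day 1 against day 0 in primary mouse myogenic progenitor cells, 1 of the 7 pairwise comparisons that the study deposited. It asks which mature microRNAs (miRNAs) move within the first day after the cells leave growth medium. All 375 miRNA assays of the plate were taken, 335 for mouse sequences and 40 for rat sequences, without any choice by their values. Each assay had 4 rows of wells on each day, which gave 3000 of the 9000 miRNA wells of the whole series.

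Myogenic progenitor cells are the descendants of muscle satellite cells that divide in culture and can fuse into myotubes. They came from hind limb muscle of C57BL/6J mice, and primary cultures at passage 3 were used throughout; no mutation, transgene or other genotype is given. For both days the cells were seeded on dishes coated with entactin, collagen IV and laminin. Day 0 was taken after 24 h of adhering in growth medium, which held Ham's F-10, 20% fetal bovine serum and 10 ng/ml FGF-2. The medium was then changed to DMEM with 2% horse serum, the differentiation medium of day 1, so that serum, growth factor, basal medium and time all differ between the days and cannot be told apart. Total RNA with an integrity number above 9 was measured by TaqMan real-time PCR.

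The measurement is the threshold cycle (Ct), the cycle at which a well's fluorescence crosses a set level, so 1 cycle earlier stands for about 2 times as much RNA. A level is given below as the Ct of MammU6, the small nuclear RNA used as endogenous control, minus the Ct of the miRNA in the same row. It is on the log2 scale, and higher means more miRNA. Levels of different assays are not compared with each other, because assays differ in efficiency. It is not stated if a day's 4 rows come from separate cultures or are wells filled with the same RNA, so every p-value here measures only the spread between rows, which may be technical.

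miRNAs are short RNAs that pair with messenger RNAs mainly through their seed, bases 2 to 8 from the 5′ end, and lower their stability or translation. During muscle differentiation, progenitor cells leave the cell cycle, and the muscle-restricted miRNAs miR-1 and miR-133 are known to accumulate as myogenic factors such as MyoD and myogenin switch on their genes. The cluster of miR-183, miR-96 and miR-182 is best known from sensory organs, where all 3 are made from a shared primary transcript.

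Sequences of some miRNAs named in the results are printed from RefSeq (mouse, GRCm38.p6), with the seed in capitals. For assay names without an arm, the 5p strand is taken as the one meant. The first 3 belong to the cluster, whose members all passed the test, and miR-188-5p is the other miRNA that rose. let-7b, let-7c and miR-98 share a seed, and their measured changes against MammU6 differed in sign. So did those of miR-15b and miR-322, which also share a seed. None of these passed against MammU6, and differences between them were not tested. miR-503, of the family of miR-15b and miR-322, has a seed that differs from theirs at 1 base.
miR-183: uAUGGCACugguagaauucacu
miR-96: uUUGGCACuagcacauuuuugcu
miR-182: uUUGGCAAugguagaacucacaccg
miR-188-5p: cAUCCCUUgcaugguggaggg
let-7b: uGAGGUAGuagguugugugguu
let-7c: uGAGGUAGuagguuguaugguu
miR-98: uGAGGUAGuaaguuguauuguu
miR-15b: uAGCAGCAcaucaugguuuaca
miR-322: cAGCAGCAauucauguuuugga
miR-503: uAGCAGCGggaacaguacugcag
The seeds of miR-183 and miR-96 differ at 1 base, those of miR-96 and miR-182 at 1 base, and those of miR-183 and miR-182 at 2 bases. The hairpins of the cluster lie on the minus strand of chromosome 6 within 3820 bases, that of miR-183 at chr6:30169668-30169737, that of miR-96 at chr6:30169446-30169551 and that of miR-182 at chr6:30165918-30165992. The miR-188 hairpin lies on the X chromosome, minus strand, at chrX:7247989-7248056. miR-685, the miRNA that fell, is named only.

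On day 1 a Ct was obtained for nearly the same assays as on day 0. Of the 375 assays 235 had a Ct in all 8 rows, 97 had none in any row and 43 had a Ct in some rows, with 251 to 262 assays per row. miRNA Ct values ran from 13.98 to 39.96 in runs of 40 cycles. MammU6 lay at 13.81, 12.69, 13.05 and 12.36 cycles in rows 1 to 4 of day 0 and at 13.25, 12.30, 12.54 and 12.74 cycles on day 1, so its rows overlapped between the days. Against the median of the 229 miRNA assays with a Ct in every differentiation row, MammU6 lay at -11.59, -12.78, -12.90 and -12.56 cycles on day 0 and at -11.87, -12.80, -12.44 and -11.86 cycles on day 1. Row 1 of day 0 and rows 1 and 4 of day 1 thus had the latest MammU6 for their miRNAs. The 4 other small RNA controls had changes against MammU6 of -0.08 (U87), -0.07 (snoRNA135), -0.09 (snoRNA202) and 0.34 (Y1), each with an SE of 0.44 and an adjusted p of 0.883 in limma.

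An assay was tested where both days had a Ct in at least 3 of 4 wells and either day averaged under 35 cycles. That held for 238 assays. Of the other assays with a Ct somewhere, 35 had too few wells on a day and 5 came too late. The rows of differentiation days 0, 1, 2 and 5 entered 1 limma fit, and p-values were adjusted over the 238 assays by the Benjamini-Hochberg method. Each SE of a change comes from that fit. It pools the spread of these 4 days and borrows from the other assays, so it can differ from the spread of days 0 and 1 alone.

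Between day 0 and day 1 the miRNA profile moved little. Of the 238 assays tested 5 changed at an adjusted p under 0.05, which is 2.10% of them, 4 higher and 1 lower on day 1. The 4 that rose were the 3 members of the miR-183 cluster and miR-188-5p, and the one that fell was miR-685. At an unadjusted p under 0.05 there were 23 assays, or 9.66%. The median change over all tested assays was 0.07, with quartiles of -0.24 and 0.40, 134 assays above 0, 104 below, and 162 with a change smaller than 0.5 in size. A change of at least 1, which is 2-fold, was measured for 18 assays upwards and 9 downwards. The standard error of a change had a median of 0.43, so many 2-fold changes of late assays did not stand out from the spread between rows.

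The number of calls depended on the reference and on the treatment of the row position. Against the row median of the 229 assays, in place of MammU6, the median change of all tested assays moved from 0.07 to -0.15, and 25 assays were called (10.5%), 5 higher and 20 lower. With the position of the row in the file as a block, 26 were called (10.9%), 17 higher and 9 lower, among them all 5 called without the block. The labels give the rows no numbers, so the block is an alternative only. Both settings called 12 assays in common, counting only those with the same sign in both.

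**Figure D1:**
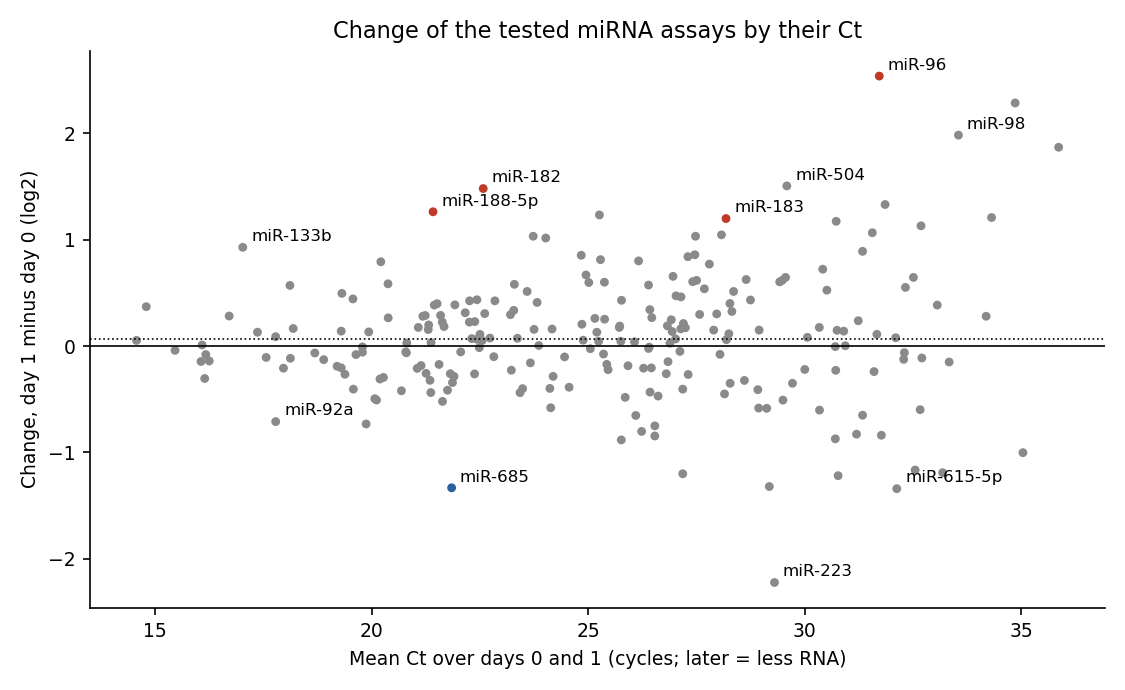
Change between the days (log2, day 1 minus day 0, against MammU6) of the 238 tested miRNA assays, plotted against their mean Ct in cycles. Red and blue points are the 4 assays higher and the 1 lower at an adjusted p under 0.05, grey points did not pass, the solid line is 0 and the dotted line is the median change of 0.07; the scatter of the grey points widens towards late Ct.

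The miR-183 cluster gave the clearest rise. miR-182 had levels of -10.48, -10.61, -10.17 and -10.64 in rows 1 to 4 of day 0 and of -9.28, -8.94, -8.65 and -9.11 on day 1. Every row of day 1 lay above every row of day 0, with a gap larger than the range within either day. miR-182 rose by 1.48 ± 0.25 (SE, n = 4 rows a day), a 2.79-fold rise, with an adjusted p of 0.00612 in limma.

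miR-183 had levels of -15.48, -16.23, -15.98 and -16.08 on day 0 and of -14.70, -15.22, -14.06 and -15.00 on day 1. The days did not overlap, but row 1 of day 0 and row 2 of day 1 were close to each other. The rise was 1.20 ± 0.28, or 2.29-fold, with an adjusted p of 0.0325, and it passed in only 2 of the 8 fits that left out a row. miR-96 had levels of -19.08, -22.71, -19.50 and -19.32 on day 0 and of -17.51, -17.71, -17.62 and -17.62 on day 1. Its day 1 rows lay within 0.2 of each other, and row 2 of day 0, a well with a Ct of 35.4, lay more than 3 cycles below the other rows of that day. The rise of miR-96 was 2.54 ± 0.59, or 5.81-fold, with an adjusted p of 0.0325, and it was 1.69 without that row, where it still passed. The call of miR-96 was lost when any of the day 1 rows, or row 3 of day 0, was left out, with adjusted p-values in limma of 0.0708 to 0.103. In a limma fit on days 0 and 1 alone no assay was called. The adjusted p was then 0.169 for both miR-96 and miR-182 and 0.229 for miR-183. For miR-188-5p and miR-685, described below, it was 0.229 and 0.217.

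All 3 cluster members on the plate were tested and all 3 passed as higher, where 5 of all 238 assays (2.10%) passed. The cluster had a median change of 1.48 against 0.07 for all 238 assays. The lists were chosen with earlier results of these data known, and these 3 are among the 5 called, so that median only restates the calls. Over the 9 references tried the median change of the cluster ran from 1.14 against Y1 to 1.57 against snoRNA202. A change of reference moves every assay with a Ct in all rows by the same amount. This range thus reflects the references and is no test of the cluster. The calls did not all hold. Against the row median the changes of miR-182, miR-183 and miR-96 were 1.27, 0.98 and 2.32, with adjusted p-values in limma of 0.0892, 0.0802 and 0.0207. In the fit with a block for row position their adjusted p-values were 2.69e-05, 0.00497 and 0.00681.

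miR-188-5p, which comes from a cluster in an intron of the chloride channel gene Clcn5, had levels of -9.13, -9.80, -9.17 and -8.71 on day 0. Its day 1 levels were -8.20, -8.24, -8.02 and -7.30. The days did not overlap, and the highest level of each day was in row 4. miR-188-5p rose by 1.26 ± 0.30 (SE, n = 4 rows a day), or 2.40-fold, with an adjusted p of 0.0325 in limma and of 0.108 against the row median, and it passed in only 2 of the 8 fits that left out a row. Of the 6 tested assays of that cluster only miR-188-5p passed. All 6 had changes above 0, from 0.50 to 1.26, as had 134 of all 238 assays. Their median was 0.62 against 0.07 for all assays. miR-362-3p, at 0.81 ± 0.40, passed against the row median (0.60, adjusted p = 0.0256), and miR-532-5p and miR-532-3p, at 0.57 and 0.50, passed in the blocked fit. miR-500 lay at 0.67 ± 0.47 and miR-501-3p at 0.58 ± 0.37.

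miR-685 was the only assay called lower against MammU6. Its levels were -8.31, -8.49, -7.92 and -8.62 on day 0 and -10.11, -9.90, -9.17 and -9.49 on day 1. Row 3 was the highest on both days, and the days did not overlap. miR-685 fell by 1.33 ± 0.28 (SE, n = 4 rows a day), 2.52-fold, with an adjusted p of 0.023 in limma. Against the row median it fell by 1.55 with an adjusted p of 0.0256. Thus miR-96 and miR-685 were called with both MammU6 and the row median, and they were the only 2. Against snoRNA135, snoRNA202, U87 and Y1, miR-685 was not called, with adjusted p-values in limma of 0.0961, 0.141, 0.216 and 0.174.

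**Figure D2:**
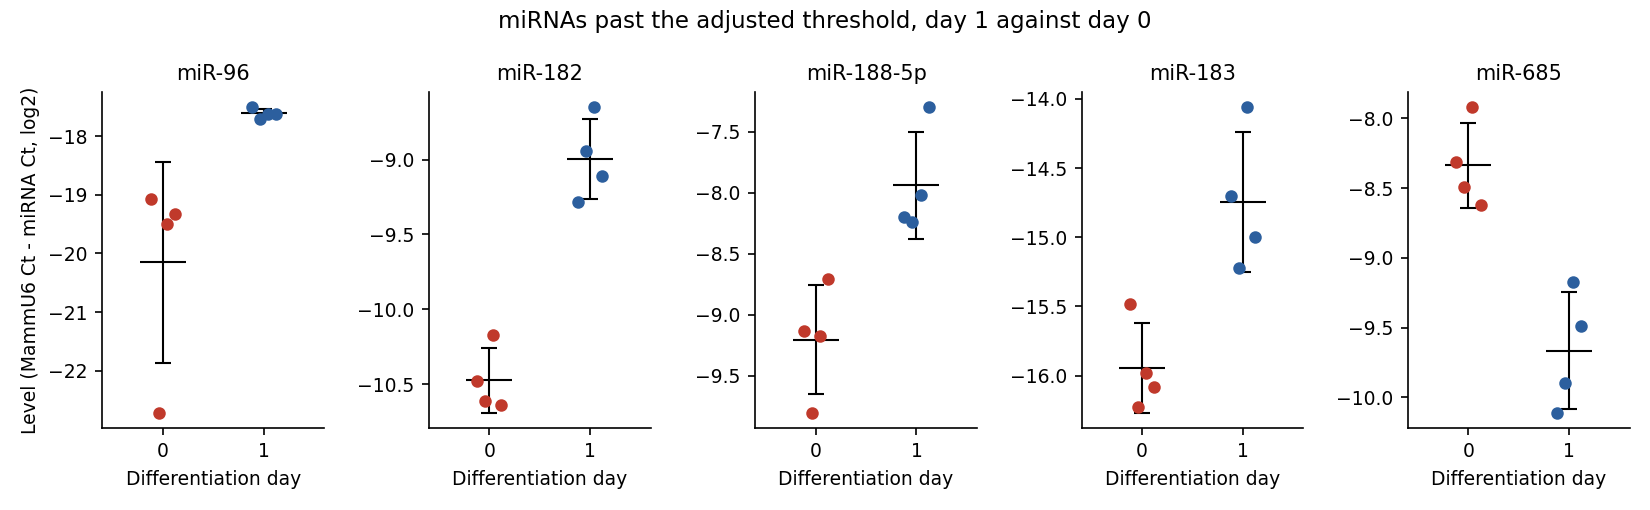
Levels of the 5 called miRNAs (MammU6 Ct minus miRNA Ct, log2) in the 4 rows of day 0 (red) and day 1 (blue), each panel with its own axis. Points are rows and black bars are the mean with its SD (n = 4); the days do not overlap in any panel, and row 2 of day 0 lies far below the other rows for miR-96.

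Between days 0 and 1 the 4 rows of each day did not overlap for 13 of the 232 tested assays with a Ct in all 8 rows, or 5.60%, 8 with day 1 above and 5 with day 1 below. An exact permutation test of 4 against 4 rows has 70 splits and cannot give a two-sided p below 0.0286, the value for each of these 13. Besides the 5 called assays they were miR-504 (1.51 ± 0.47), miR-193 (1.05 ± 0.29), miR-431 (1.02 ± 0.30) and the rat miR-339-3p assay (0.84 ± 0.27) on the upper side. On the lower side they were miR-615-5p (-1.34 ± 0.40), miR-187 (-0.85 ± 0.32), miR-125b-3p (-0.80 ± 0.28) and miR-92a (-0.71 ± 0.29). None of these 8 passed against MammU6, with adjusted p-values in limma from 0.0839 for miR-193 to 0.331 for miR-92a, whereas miR-504, miR-615-5p, miR-125b-3p and miR-92a passed against the row median. In the blocked fit against MammU6 all of them passed (adjusted p of 0.00462 to 0.0416) except miR-187 (0.0854). That fit called 26 of all 238 assays (10.9%), and these 8 were picked from the same rows, so it adds no separate support. The mouse miR-339-3p assay lay at 0.43 ± 0.24, its rows overlapped between the days, and it did not pass. Its adjusted p in limma was 0.682, or 0.128 with the block.

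The list called muscle-restricted holds textbook markers of myogenic differentiation. Its member miR-486 is not restricted to muscle and is counted in a further list below too. All members were detected before the medium was changed, except miR-208, which had no Ct on either day. miR-133a, which restrains serum response factor and other regulators of myoblast growth, had its Ct at a mean of 15.11 cycles on day 0. miR-208b, miR-486 and miR-499 came late on day 0, at mean levels of -18.10, -19.69 and -19.99 where MammU6 averaged 12.98 cycles. Of the 6 tested members of the list 0 passed against MammU6, where 5 of all 238 assays (2.10%) did. At that share, a list of few assays with 0 passed says little, here and below. All 6 had changes above 0, as had 134 of all 238 assays. The list median was 0.51 against 0.07 for all assays. Over the 9 references, which shift all assays with a Ct in every row alike, it ran from 0.17 against Y1 to 0.60 against snoRNA202. Summed over the list, the level ran from -2.42 to -1.47 over the rows of day 0 and from -1.78 to -1.04 on day 1. Such a sum takes all assays as equally efficient and is carried by the earliest, here miR-133a.

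miR-133b is encoded beside miR-206 and differs from miR-133a at its 3′ end. Its levels were -4.00, -5.11, -5.07 and -4.38 on day 0 and -3.04, -4.18, -4.18 and -3.45 on day 1. The days overlapped, since the lowest rows of day 1 lay below row 1 of day 0, but each row of day 1 lay above the row in the same position on day 0. The change was 0.93 ± 0.39 (SE, n = 4 rows a day) with an adjusted p of 0.354 against MammU6 in limma, 0.71 with an adjusted p of 0.0176 against the row median, and 0.93 with an adjusted p of 0.00658 when the row position was a block.

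miR-486, which lies in the ankyrin gene Ank1 and lowers Pax7 in muscle cells, had levels of -19.34, -19.63, -21.18 and -18.60 on day 0 and of -18.16, -18.42, -18.82 and -18.03 on day 1. Only the lowest row of day 1 fell below the highest row of day 0, and the change was 1.33 ± 0.49 with an adjusted p of 0.232, or 0.0368 in the blocked fit and 0.0319 against snoRNA135. miR-1, which targets the histone deacetylase Hdac4 in muscle, had levels of -8.46, -9.68, -8.83 and -8.60 on day 0 and of -9.16, -9.60, -7.82 and -7.84 on day 1. Rows 1 and 2 of day 1 lay within the range of day 0 and rows 3 and 4 above it, and the change was 0.29 ± 0.45. A second miR-1 assay, designed for the rat sequence, gave 0.44 ± 0.45. miR-133a lay at 0.37 ± 0.30, miR-499, from an intron of the myosin gene Myh7b, at 0.65 ± 0.77, and miR-208b, from an intron of the slow myosin gene Myh7, at 0.00 ± 0.45.

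The later days put the first day in context. miR-1 averaged -8.89 ± 0.55 (SD, n = 4 rows) on day 0, -8.60 ± 0.91 on day 1, -5.59 ± 0.55 on day 2 and -3.62 ± 0.52 on day 5. On day 2 all rows of miR-1 lay above all rows of days 0 and 1. miR-499 averaged -19.99 ± 1.63, -19.35 ± 1.08, -15.62 ± 0.91 and -12.92 ± 1.09 on the same days, and miR-133a -2.13 ± 0.40, -1.76 ± 0.33, 0.13 ± 0.41 and 1.43 ± 0.31. For these 3 miRNAs the day 0 and day 1 rows overlapped and the later rows did not overlap with them.

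miR-133b averaged -4.64 ± 0.54, -3.71 ± 0.57, -2.25 ± 0.59 and -2.04 ± 0.50 over days 0, 1, 2 and 5. miR-182 had a different course, with -10.48 ± 0.21, -9.00 ± 0.27, -8.70 ± 0.32 and -9.87 ± 0.16, so that its day 5 rows lay between those of day 0 and day 1. miR-188-5p averaged -9.20 ± 0.45, -7.94 ± 0.44, -7.08 ± 0.29 and -8.30 ± 0.22. miR-96 averaged -20.15 ± 1.71, -17.62 ± 0.08, -16.45 ± 0.41 and -17.30 ± 0.45, and miR-183 -15.94 ± 0.33, -14.74 ± 0.50, -14.36 ± 0.09 and -14.38 ± 0.23. miR-685 averaged -8.34 ± 0.30, -9.67 ± 0.42, -10.21 ± 0.22 and -10.34 ± 0.25.

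**Figure D3:**
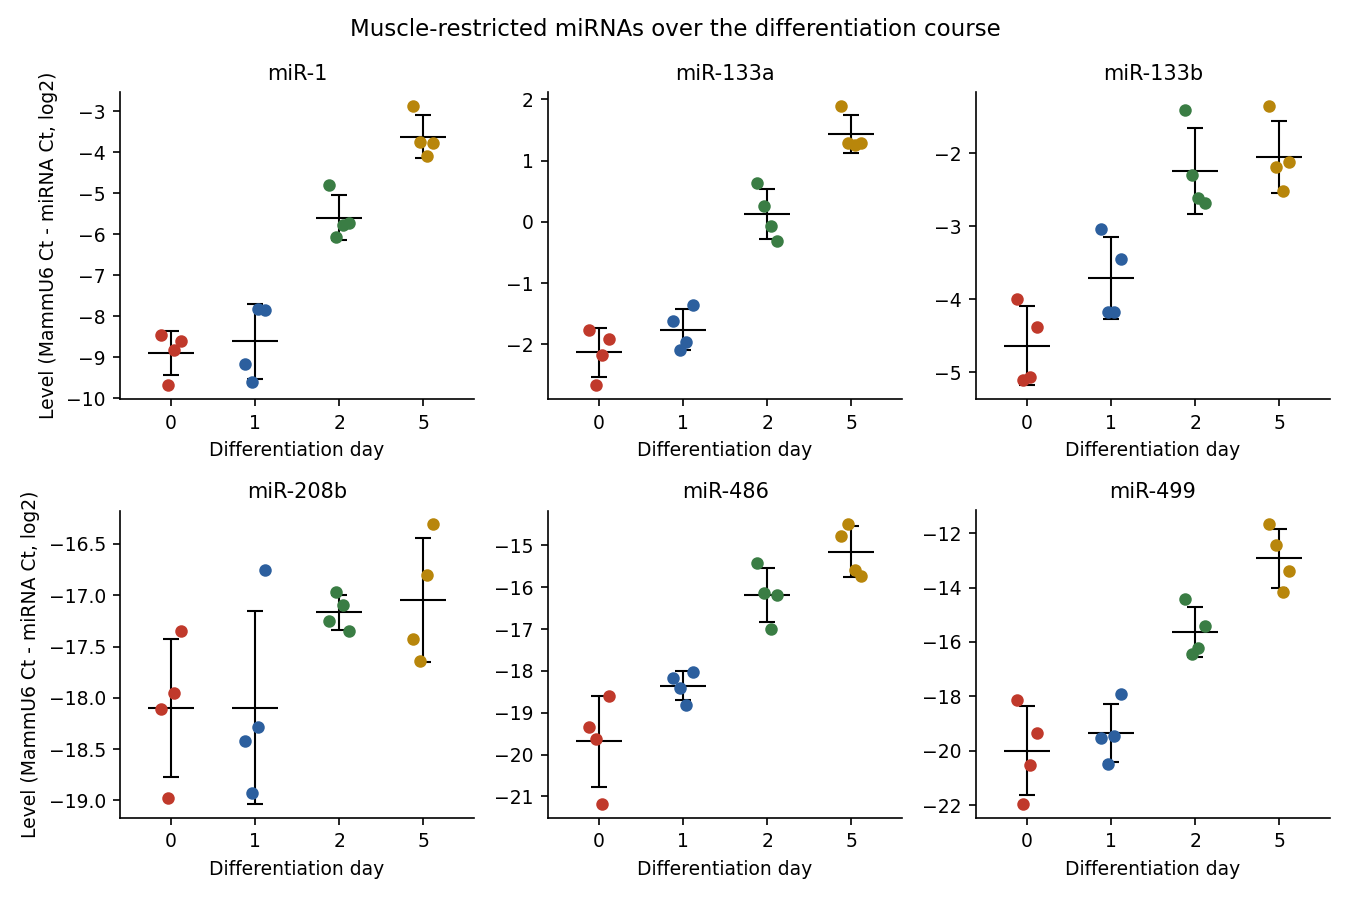
Levels of the 6 tested miRNAs of the list called muscle-restricted (MammU6 Ct minus miRNA Ct, log2) on differentiation days 0, 1, 2 and 5, each panel with its own axis. Points are the 4 rows of a day and black bars the mean with its SD; day 0 and day 1 rows overlap in every panel, while the day 2 rows of miR-1, miR-133a, miR-133b, miR-486 and miR-499 lie above all rows of both.

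Whether the step from day 0 to day 1 differed from the step from day 1 to day 2 was tested directly in the same limma fit, over 239 assays. At an adjusted p under 0.05 the steps differed for 0 assays (0%), and for 15 at an unadjusted p under 0.05. With the row position as a block they differed for 12 (5.02%). The lowest p-value belonged to miR-1, whose steps were 0.29 and 3.01 and whose adjusted p was 0.349, or 0.0325 with the block. The rat miR-1 assay had steps of 0.44 and 2.36 and did not pass in either limma fit, with adjusted p-values of 0.582 and 0.0929. miR-182 had steps of 1.48 and 0.30, with adjusted p-values of 0.501 and 0.0325, and miR-615-5p steps of -1.34 and -3.54, with 0.349 and 0.0325. Both steps share the day 1 rows, so an error in those rows moves the steps in opposite directions.

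A further list holds miRNAs with reported roles in myoblasts, most of them more widely expressed. Of its 16 tested assays 0 passed, with a median change of 0.04. The list median was below 0 with 3 of the 9 references. miR-486 is counted here too. miR-503, which lowers the cell cycle phosphatase Cdc25A in myoblasts together with miR-322, had levels of -11.32, -11.88, -11.65 and -10.76 on day 0 and of -10.46, -10.75, -10.80 and -9.47 on day 1. Only row 3 of day 1 lay below the highest row of day 0, and row 4 was highest on both days. The change was 1.03 ± 0.35 with an adjusted p of 0.196, or 0.00524 with the row position as a block. miR-322 lay at 0.31 ± 0.37 and overlapped between the days. The 6 tested assays of the cluster of miR-322, miR-503, miR-351, miR-542 and miR-450 all had changes above 0 against MammU6, as had 134 of all 238 assays. They ran from 0.06 to 1.03, with a median of 0.24 that turned to -0.10 against Y1. The rat assays of the same cluster, which the list leaves out, gave 0.23 ± 0.28 for miR-351 and -0.005 ± 0.579 for miR-450a.

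miR-29b, which targets collagens and the chromatin regulator YY1, lay at 0.80 ± 0.45, miR-29c at 0.03 ± 0.46 and miR-29a at 0.01 ± 0.42. miR-24 lay at 0.05 ± 0.31, miR-27b, which targets Pax3, at 0.23 ± 0.45, and miR-26a, which targets the methyltransferase Ezh2, at 0.13 ± 0.37. The paired miRNAs miR-221 and miR-222, which lower p27, an inhibitor of the cell cycle, were measured at -0.27 ± 0.48 and -0.04 ± 0.33. None of these passed in limma.

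The cluster that runs from miR-17 to miR-92a and its paralogs, which promote proliferation downstream of Myc and E2F, had 0 of 11 tested assays past the threshold and a median change of -0.08. That median was below 0 with 7 of the 9 references. miR-92a stood lowest. Its levels were -4.15, -4.85, -4.43 and -4.89 on day 0 and -5.29, -5.66, -5.15 and -5.06 on day 1. The days did not overlap, and the change of -0.71 had an adjusted p of 0.331 against MammU6, 0.0307 against the row median and 0.0215 in the blocked fit. The other members of the primary transcript lay close to 0, with miR-17 at -0.14 ± 0.29, miR-20a at -0.11 ± 0.32, miR-19b at -0.08 ± 0.32, miR-18a at 0.08 ± 0.32 and miR-19a at 0.27 ± 0.33. The difference between miR-92a and these was not tested.

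Measured changes of family members with the same seed did not all have the same sign. None of the families below had a member past the threshold against MammU6, and differences between members were not tested. In the let-7 family, known to hold back growth genes such as Lin28 and Ras, 0 of 9 tested assays passed and the median was 0.05. miR-98 had levels of -20.52, -21.24, -23.24 and -21.82 on day 0 and of -18.15, -20.11, -21.25 and -19.38 on day 1. The days overlapped while each position was higher on day 1, and the change of 1.98 ± 0.74 had an adjusted p of 0.235, or 0.00164 with the block. let-7b and let-7c, which differ from miR-98 at 3 and 2 of 22 positions, lay at -0.42 ± 0.45 and -0.41 ± 0.42, and both passed as lower against the row median at -0.64 and -0.62 (adjusted p = 0.0497 and 0.0301). Neither was called with any other of the 9 references. The other 6 lay between -0.21 and 0.46. miR-98 came late, at a mean Ct of 34.68 on day 0 and 32.43 on day 1, and let-7b early, at 20.61 and 20.76.

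In the family of miR-15 and miR-16, which targets cyclins, 0 of 7 passed, with a median of -0.21. miR-15b, at -0.32 ± 0.37, passed as lower against the row median (-0.54, adjusted p = 0.0464) and with no other reference. miR-15a lay at 0.77 ± 0.49 and miR-16 at -0.21 ± 0.32. The miR-30 family had 0 of 5 past the threshold, with a median of 0.13, and the miR-34 and miR-449 family 0 of 4, with a median of 0.12. Both medians turned negative with 2 of the 9 references. The miR-181 family, with miR-181a at -0.08 ± 0.50 and miR-181c at 0.14 ± 0.58, likewise had 0 of 2 past the threshold.

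The large imprinted cluster between Dlk1 and Dio3 had 31 tested assays of 49 on the plate. None passed against MammU6, where 5 of all 238 assays (2.10%) did. Changes lay above 0 for 25 and below 0 for 6, against 134 above and 104 below over all 238. The median was 0.23, which became 0.015 against the row median and -0.11 against Y1. miR-431, which targets Pax7 in muscle progenitors, had levels of -11.34, -12.04, -12.01 and -11.36 on day 0 and of -10.85, -11.08, -10.64 and -10.12 on day 1. All its day 1 rows lay above day 0, and the change of 1.02 had an adjusted p of 0.121, or 0.00793 with the block. miR-376a lay at 1.03 ± 0.40 (adjusted p = 0.262, or 0.0368 with the block), miR-493 at 1.17 ± 0.60 and the rat miR-758 assay at 1.87 ± 1.18. miR-329, at -0.87 ± 0.48, was the lowest of the cluster and passed against the row median (-1.09, adjusted p = 0.0464) but with no other reference.

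The miRNAs of the Hox clusters had 0 of 5 past the threshold and all 5 below 0, where 104 of all 238 assays lay below 0. Their median was -0.35 against 0.07 for all assays. Over the 9 references, which shift all assays alike, it ran from -0.69 against Y1 to -0.26 against snoRNA202. miR-615-5p, from the HoxC cluster, had levels of -17.98, -19.03, -18.80 and -18.66 on day 0 and of -19.80, -20.06, -20.70 and -19.27 on day 1. The days did not overlap. The change of -1.34 ± 0.40 had an adjusted p of 0.121 against MammU6, 0.0162 against the row median and 0.0107 with the block, and on days 2 and 5 its mean level was -23.50 and -22.52. miR-10a, at -0.45 ± 0.72, and miR-10b, at -0.35 ± 0.53, differed widely between rows of the same day. The miRNAs of the Sfmbt2 intron had 0 of 6 past the threshold, with a median of 0.28, led by miR-669a at 1.13 ± 0.83.

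Of the 5 assays called higher against the row median, miR-96, miR-133b and miR-362-3p are described above. miR-504, which targets p53, had levels of -16.51, -17.82, -18.93 and -16.74 on day 0 and of -15.60, -16.12, -15.96 and -16.30 on day 1. The days did not overlap, and day 0 spread over more than 2 cycles. Its change was 1.51 ± 0.47 against MammU6 (adjusted p = 0.154) and 1.29 against the row median (adjusted p = 0.0228). miR-675-3p, which is processed from the long noncoding RNA H19, had levels of -12.09, -13.52, -13.79 and -12.73 on day 0 and of -10.96, -12.50, -12.26 and -11.48 on day 1. The days overlapped, but each position was higher on day 1. Its change was 1.23 ± 0.48 against MammU6 (adjusted p = 0.262) and 1.02 ± 0.20 against the row median (adjusted p = 0.0123).

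Of the 20 assays called lower against the row median, miR-685 alone was also called against MammU6. The largest falls among them were miR-223 at -2.44, miR-615-5p at -1.56, miR-685 at -1.55, miR-582-3p at -1.54 (-1.32 ± 0.46 against MammU6) and miR-672 at -1.42 (-1.20 ± 0.55 against MammU6). miR-671-3p, at -1.10, had the lowest adjusted p of these, 0.0123, shared with miR-214 and miR-582-3p, and lay at -0.88 ± 0.45 against MammU6. miR-107, which targets Cdk6, lay at -0.80 against the row median and at -0.58 ± 0.46 against MammU6. Of the 9 references, the row median alone called miR-107, let-7b, let-7c, miR-15b, miR-199a-3p and miR-329. With the row mean of the same assays as reference, 9 assays were called lower in place of 20.

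Markers of other cell types that a muscle culture can hold were measured in the same rows. In a bulk sample, fewer cells of a type and less RNA per cell cannot be told apart. Of the 6 blood cell markers on the plate 5 were tested and 0 passed, where 5 of all 238 assays (2.10%) did. All 5 markers had changes below 0, as had 104 of all 238 assays. Their median was -1.17 against 0.07 for all assays. miR-223, a marker of myeloid cells, had levels of -15.02, -16.26, -14.60 and -15.52 on day 0 and of -17.00, -18.05, -19.31 and -15.93 on day 1. Only row 4 of day 1 reached into the range of day 0. The change of -2.22 ± 0.76, 4.67-fold lower, had an adjusted p of 0.196 against MammU6, 0.0256 against the row median and 0.0368 in the blocked fit.

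miR-142-3p, found in all blood cell lineages, lay at -1.19 ± 0.63, miR-451, a marker of red cells, at -1.17 ± 0.87, miR-155, induced in activated leukocytes, at -0.73 ± 0.34 and miR-150, a lymphocyte miRNA, at -0.41 ± 0.37. Summed over the blood cell list, levels ran from -7.32 to -6.33 on day 0 and from -8.08 to -6.73 on day 1, values that are almost those of miR-155 alone and say little of the others. miR-146a and miR-146b, which with miR-155 make up the inflammatory list, lay at -0.75 ± 0.45 and -0.40 ± 0.32, and 0 of these 3 passed.

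The fibroblast and smooth muscle markers had 0 of 5 past the threshold against MammU6 and a median of -0.44. miR-214, which is made with miR-199a from the noncoding RNA Dnm3os, lay at -0.50 ± 0.33 and passed as lower against the row median (-0.71, adjusted p = 0.0123), as did miR-199a-3p (-0.44 ± 0.48 against MammU6, -0.65 against the row median, adjusted p = 0.0467). Of the other references, the row mean of the same assays also called miR-214, and none called miR-199a-3p. miR-145 lay at -0.19 ± 0.43, miR-143 at 0.11 ± 0.46 and miR-199a-5p at -0.83 ± 0.53. The summed level of this list ran from -5.72 to -4.36 on day 0 and from -6.08 to -4.97 on day 1.

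The endothelial markers miR-126-3p and miR-126-5p lay at -0.44 ± 0.38 and -0.26 ± 0.40, with summed levels of -10.86 to -9.58 on day 0 and -11.26 to -9.95 on day 1. Of 7 epithelial markers 4 had no Ct in any row, namely miR-200a, miR-200b, miR-141 and miR-429, and the 3 tested, miR-203, miR-200c and miR-205, lay between -0.65 and -0.58. The neuronal miR-9 and miR-128a lay at 0.60 ± 0.42 and 0.51 ± 0.41. Of the 11 markers of pluripotent cells 6 had no Ct and 0 could be tested. None of these lists had an assay past the threshold, and the part of other cells in the results above was not tested.

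**Figure D4:**
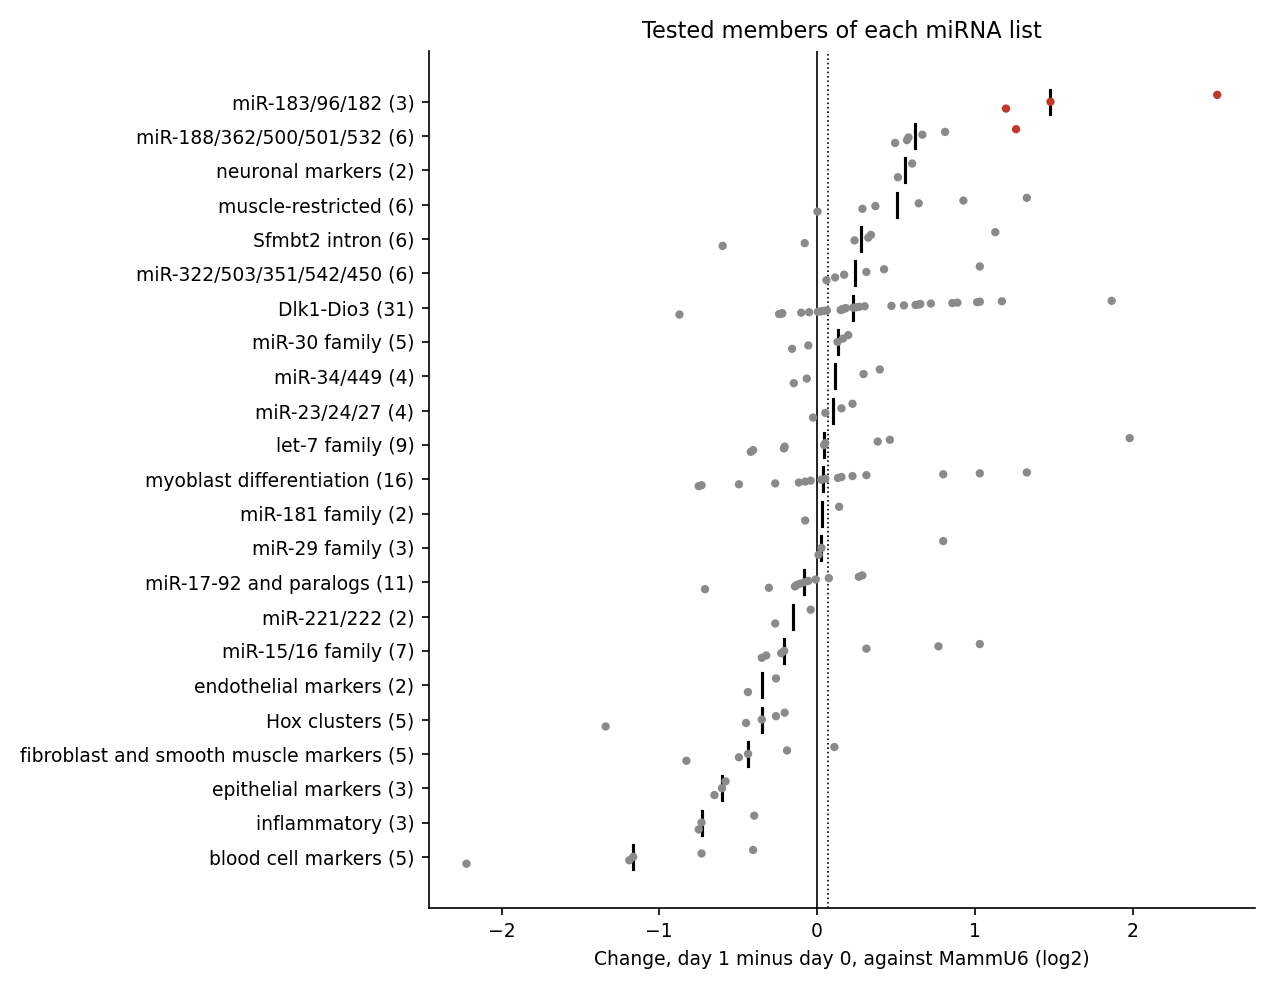
Changes of the tested members of each miRNA list (log2, day 1 minus day 0, against MammU6), with the number tested in brackets. Red points passed as higher at an adjusted p under 0.05, grey points did not pass, black ticks are list medians, the solid line is 0 and the dotted line is the median of all 238 assays (0.07); the list median lies highest for the miR-183 cluster and lowest for the blood cell markers.

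Few assays gained or lost detection as a whole. Complete presence on 1 day with complete absence on the other was seen for 0 assays. miR-294, a miRNA of embryonic stem cells, had no Ct on day 0 and 3 wells at a mean of 35.07 cycles on day 1, and miR-496 of the Dlk1-Dio3 cluster had 1 well on day 0 and 4 on day 1. miR-292-3p went the other way, with 4 wells on day 0 and 1 on day 1. These were chosen after their values were seen, and no difference was estimated for them.

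The authors' deposited table gives signed fold changes for this comparison. For 228 of its 231 entries, those that are miRNA assays with a Ct on both days, the deposited fold lay within 0.01 on the log2 scale of the difference in day means against MammU6. The authors' deposited table holds 5.81 for miR-96, 2.79 for miR-182, 2.40 for miR-188-5p, 2.29 for miR-183 and -2.52 for miR-685. It carries no error, so that the 5 are not set apart there from assays of like size, such as miR-98 or miR-223, whose rows overlapped.

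**Figure D5:**
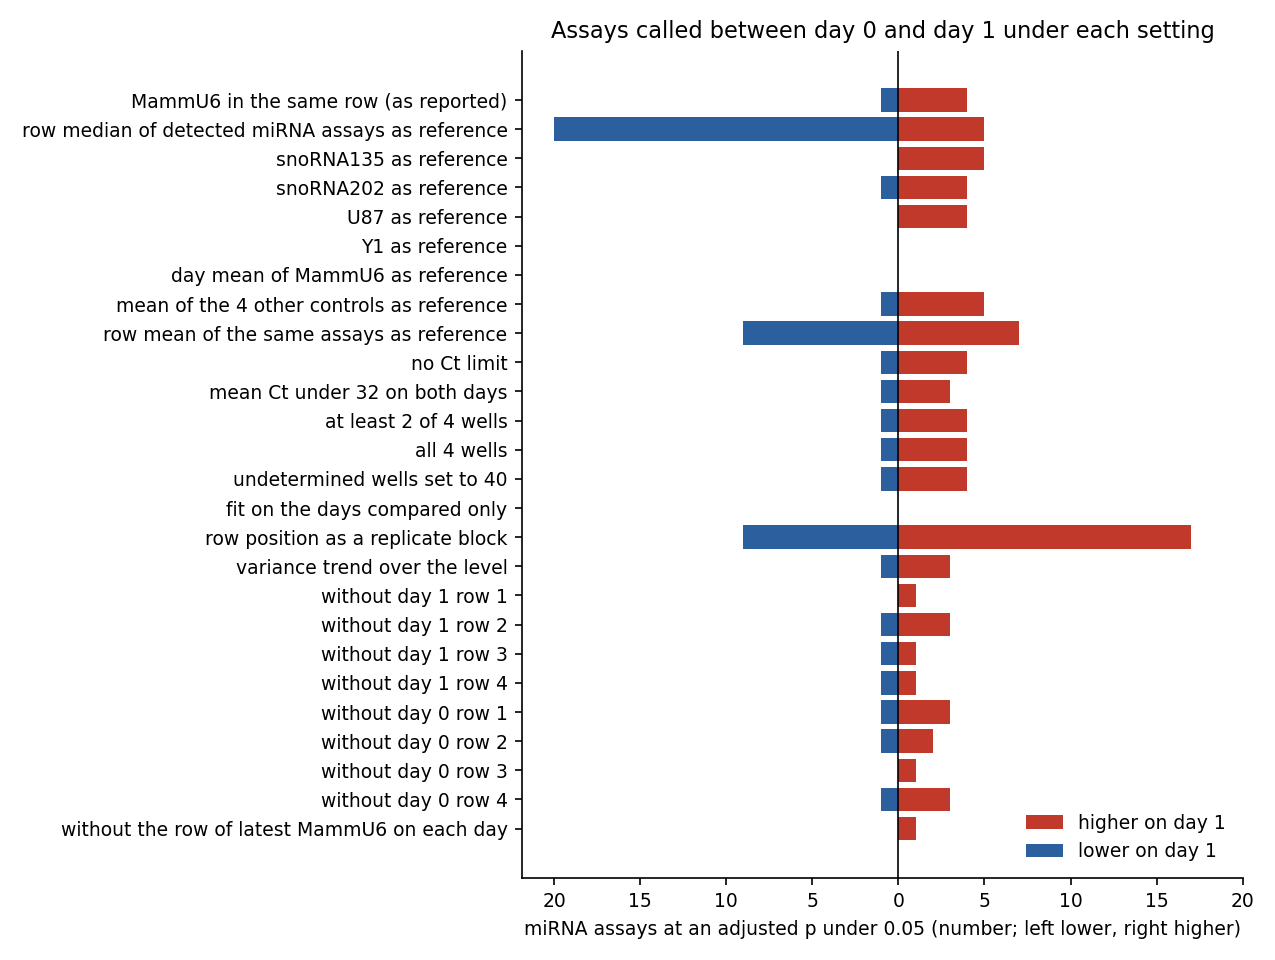
Number of miRNA assays at an adjusted p under 0.05 between day 0 and day 1 for each reference, filter, fit and left-out row, with assays higher on day 1 to the right in red and lower ones to the left in blue. The MammU6 reference gave 4 higher and 1 lower, the row median 5 and 20 and the block on row position 17 and 9, and no assay was called with Y1, with the day mean of MammU6 or with a fit on these days alone.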

How the data were processed

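TaqMan assays were read in primary myogenic progenitor cells on differentiation days 0 and 1. The authors deposited raw Ct values, per the file headers, with no normalization; wells without a Ct are marked as undetermined and were left out. The authors also deposited a table of signed fold changes against MammU6; it served only as a check. Repeated day columns were identical and were used once. Threshold settings and pooling of RNA are not given in the sources used here.

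Levels, MammU6 Ct minus miRNA Ct, entered limma 3.58.1 in R 4.3.3 (lmFit, eBayes; 251 assays, 16 rows of differentiation days 0, 1, 2 and 5); tests are two-sided. The script was tested on simulated data. Rows carry no numbers in the labels, so the main fit has no block. Deviations from the day means, over the 229 assays, correlated between same row positions of days 0 and 1 at 0.451, 0.245, 0.336 and 0.538, but row 2 of day 0 correlated best with row 1 of day 1 (0.277).

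The miRNA lists were made by hand, and members and lists were chosen with earlier results of these data known. Named assays were those past the threshold against MammU6, the largest changes among assays whose rows do not overlap and among those called against the row median, up to 10 each way, all tested members of the muscle, miR-183, miR-188, miR-322, miR-17 and miR-221 lists, and up to 4 with the largest changes in every other list; a few further list members are named for completeness. Alternatives covered the reference, filters, fit, block and each row left out. Precision is limited by the 4 rows a day and detection by the 40 cycles. Plots were made in Python 3.11.15 (matplotlib 3.10.9).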

Additional observations from a re-analysis of the deposited data

Results flagged for a closer look

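In 11 of 200 groups of 4 rows (named assays, days 0 and 1), 1 row stood apart from the other 3 by Dixon's test, which chance gives in about 1 of 20 groups. On day 0, miR-96 lay at -22.71 in row 2 against -19.50 to -19.08 in the others, and miR-10b at -16.72 in row 3 against -14.91 to -14.72. Row 1 of day 0, where MammU6 was latest, stood above the other rows for miR-214 (-6.24), miR-221 (-5.27), miR-25 (-8.21) and miR-30b (-4.74). On day 1, let-7b (-8.92) and let-7c (-7.69) were low in row 2, miR-181a (-11.79) was high in row 1, and miR-351 (-9.34) and the rat miR-339-3p assay (-13.58) were high in row 4. Of these, miR-96 is the only one called between the days against MammU6.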

How the results depend on the processing

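Of the values of single named assays under the alternatives, 2375 kept their direction and their side of the threshold or had no call to lose, 62 lost a call, 66 gained one, and 0 called values changed sign. The count of 5 assays called between the days became 25 against the row median, 16 against the row mean (chosen after seeing the data), 26 with the row position as a replicate block, 1 at an adjusted p under 0.01, 1 without the row of latest MammU6 on each day, and 0 with Y1, with the day mean of MammU6 and with limma on these days alone, where 32, 27 and 25 assays had an unadjusted p under 0.05. The cause was not tested, except that the last fit has fewer rows. Filters on wells and Ct left 4 to 5 calls. Leaving out each row in turn gave 1 to 4 calls, with a single call left when day 1 lost row 1 or day 0 lost row 3, 2 when day 1 lost row 3 or 4, and 3 when day 0 lost row 2. miR-182 kept its call in each of these fits; miR-685 lost it in 2, miR-96 in 5, and miR-183 and miR-188-5p in 6 each. miR-182 lost it with each other reference, miR-96 with U87, Y1 and the day mean. The count of assays whose 2 steps differ, 0, became 12 with the row position as a replicate block and 1 with snoRNA135, and stayed 0 without each row. No paired analysis beyond this block was possible because the rows carry no numbers. Late assays had the widest errors, up to an SE of 1.73.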

Other observations

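Across the 9 references tried for the comparison of day 1 with day 0, miR-133b, miR-504, miR-675-3p and miR-96 were each called higher with 6, more than any other assay. miR-671-3p was called lower with 4 and miR-685 with 3. The change of miR-133b ran from 0.59 against Y1 to 1.02 against snoRNA202, that of miR-675-3p from 0.89 to 1.32 and that of miR-504 from 1.17 to 1.60. miR-133b, miR-504 and miR-675-3p did not pass against MammU6 in the same row, while miR-182, miR-188-5p and miR-183 passed with that reference alone. The references share the same rows and wells, so the counts are a description and not independent tests.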
